A study of Mus musculus with 6 samples.

Results

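The Zfp genes are the mouse genes that carry the symbol Zfp and a number, short for zinc finger protein. The group described here holds the 126 of them that are protein coding and reached a mean of at least 1 FPKM, the fragment count scaled by gene length and library total, over 6 libraries of peripheral blood (PB) neutrophils. They were chosen by this mean level over both groups, and not by their difference between groups. *Zfp36* was left out, because its product binds AU-rich mRNA and is not of this kind. The deposited table lists 29097 genes, of which 343 are named Zfp and a number. Of these, 10 had no protein-coding transcript and 206 protein-coding ones lay under the threshold. Nearest to the floor lay *Zfp672* (mean 1.013 FPKM), *Zfp790* (1.029) and *Zfp410* (1.033) inside it and *Zfp451* (0.999), *Zfp346* (0.997) and *Zfp566* (0.995) outside.

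The libraries came from C57BL/6 wild type male mice 8 weeks old. In the ligation-induced periodontitis (LIP) group, silk ligatures were tied around the second molars of both jaws on both sides and kept for 14 d, and control mice (Ctrl) stayed unligated for the same period. Neutrophils were sorted from PB as CD45+CD11b+Ly6G+ cells, each library was made by Smart-seq2 from a pool of 5 mice, and each group had 3 libraries, with total counts between 52186555 and 57262379. A library is therefore an average over mice, and the spread between single mice is not measured.

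Most proteins of this name carry fingers of the Cys2-His2 type, short loops that hold a zinc ion and read the bases of DNA one finger after another. A large share of them also carry a KRAB domain, which recruits the corepressor TRIM28 (KAP1) and through it the H3K9 methyltransferase SETDB1, histone deacetylases and HP1 proteins. This machinery keeps retroelements and imprinted genes silent. Others activate promoters, bind RNA or act outside transcription, so the shared symbol does not stand for a shared function.

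The sort label was checked against marker genes. All 15 mature neutrophil markers were higher in LIP, and their summed level was 16880 to 20480 FPKM in Ctrl and 57910 to 62300 FPKM in LIP. Genes of other cells were present too. The 10 B cell markers summed to 3655 to 3921 FPKM in Ctrl and 533.7 to 592.7 FPKM in LIP, and all 10 were lower. The 10 T cell markers summed to 195.4 to 230.4 FPKM in Ctrl and 34.2 to 42.3 FPKM in LIP, and all 10 were lower. The 9 erythroid markers summed to 180800 to 187000 FPKM in Ctrl, above the mature neutrophil markers there, and to 19510 to 20220 FPKM in LIP. All 9 were lower (median log2 fold change -3.01). Of the other lists, 6 of 6 platelet markers, 6 of 7 monocyte markers and 2 of 6 NK cell markers were higher. None of the 4 neutrophil precursor genes tested was called by edgeR (none at an unadjusted p under 0.05, 0 by DESeq2 and 2 by limma on log2(FPKM + 1)). No B cell or T cell marker was at 0 in any library. In such bulk samples, fewer cells of a type and less RNA per cell cannot be told apart, and the part of other cell types in the values below was not tested.

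Compared with Ctrl, more Zfp genes fell than rose in LIP PB neutrophils, in a transcriptome where more genes were called than not. Of the 126 genes, 35 (27.8%) were lower and 14 (11.1%) were higher at an adjusted p under 0.05 by edgeR's quasi-likelihood test with Benjamini-Hochberg adjustment over 10440 genes, and 77 were not called. Over all genes tested, 53.6% were called, 27.2% lower and 26.5% higher. The share of lower Zfp genes was thus near the background, and the share of higher ones was below it. The median log2 fold change of the Zfp genes was -0.20, beside -0.09 over all genes tested. The middle of their distribution ran from -0.84 to 0.28 (25th and 75th percentiles), against -0.84 to 0.64 over all genes. The lower quartile and the share of lower Zfp genes are partly set by the floor. In 21 of the 126 genes only the Ctrl mean reached 1 FPKM, and 15 of these were called lower. In the 105 genes at 1 FPKM or more in both groups the 25th percentile was -0.51, and 19% were lower. Over all 126, single genes ranged from -2.46 to 1.32.

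**Figure D1:**
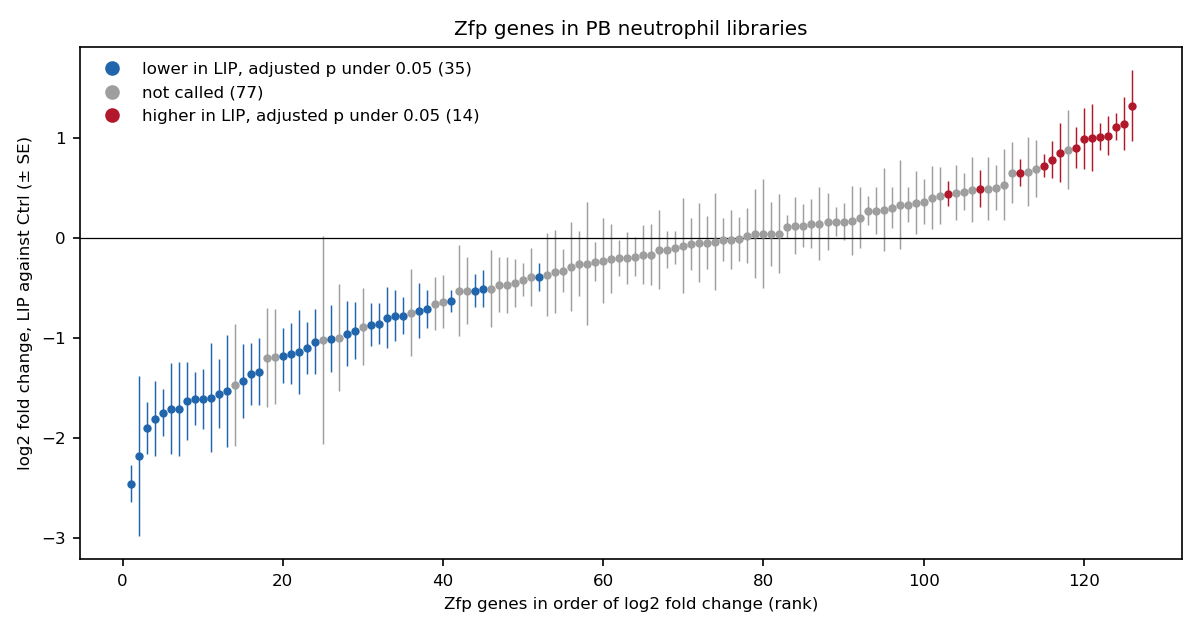
Log2 fold change, LIP against Ctrl, of the 126 Zfp genes (y axis, bars ± SE, 3 libraries a group) in order of that value (x axis, rank). Blue points mark the 35 genes lower in LIP, red points the 14 higher ones and grey points the 77 that were not called. Values run from -2.46 to 1.32 under trimmed-mean scaling. Under scaling on the mature neutrophil genes none was called higher, beside 0.642% of all genes tested.

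These directions are relative to the bulk of the transcriptome, as set by trimmed-mean (TMM) scaling. Scaling on the 15 mature neutrophil genes moved the median of all genes to -1.89 and that of the Zfp genes to -2.0, with 123 Zfp genes called lower and 0 higher. Over all genes tested, 88.1% were called lower and 0.642% higher under that scaling. Scaling by library totals moved the medians of all genes and of the Zfp genes to -0.42 and -0.52. It gave 50 Zfp genes lower and 8 higher, beside 39.7% and 18.4% of all genes. In the other scalings of the counts the lower Zfp genes numbered 31 to 42 and the higher ones 13 to 15. Over all genes these scalings called 25.8% to 31.4% lower and 23.6% to 27.7% higher.

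**Figure D2:**
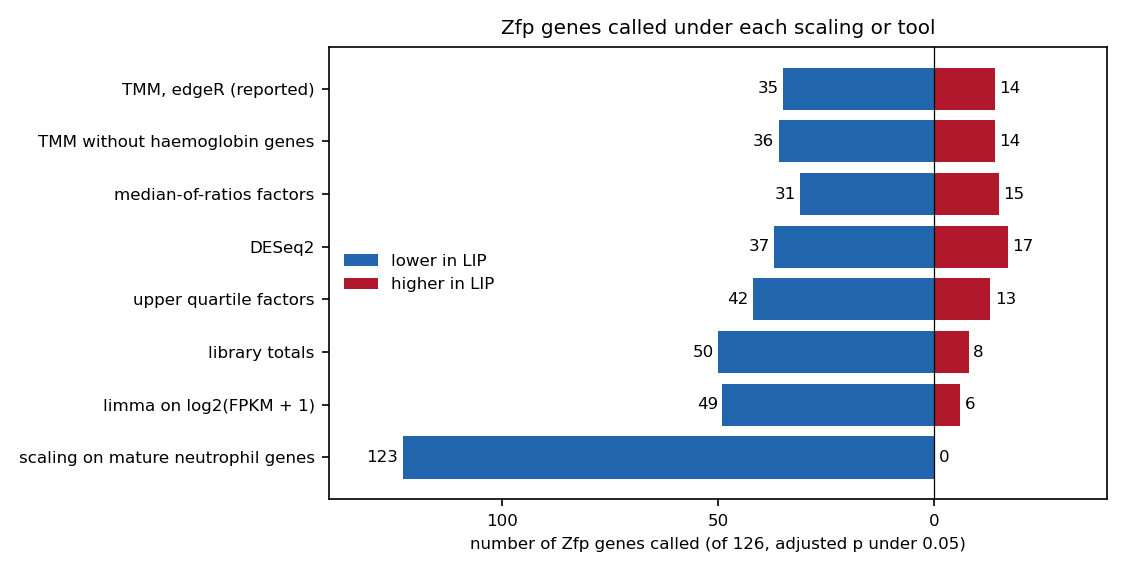
Number of Zfp genes called lower (blue, left of 0) and higher (red, right of 0) in LIP under each scaling or tool, at an adjusted p under 0.05. The reported fit gives 35 and 14, library totals 50 and 8, limma on log2(FPKM + 1) 49 and 6, and scaling on the mature neutrophil genes 123 and 0. In the same order, the shares of all genes tested were 27.2% and 26.5%, 39.7% and 18.4%, 40.7% and 19.3%, and 88.1% and 0.642%.

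Scaled by library totals alone, the summed counts of the 126 genes took 0.335%, 0.284% and 0.317% of all counts in Ctrl libraries 1 to 3. In LIP libraries 1 to 3 they took 0.250%, 0.257% and 0.253%. The groups did not overlap, and every LIP library lay below every Ctrl library. Summed FPKM gave the same order, at 608.1, 516.7 and 568.7 in Ctrl and 430.0, 456.4 and 434.5 in LIP. These sums include 21 genes that reached 1 FPKM in Ctrl alone and 0 that did so in LIP alone, so the floor favours Ctrl. Sums without those genes are not given. Under scaling by library totals the median of all genes tested was itself -0.42.

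Zfp transcripts were scarce. Their median level was 2.59 FPKM, against 5.17 over all genes tested, and 49 of the 126 lay between 1 and 2 FPKM. Of these 49, 16 (32.7%) were lower and 4 (8.16%) higher, beside 24.2% and 10.4% of all genes at that level. Most of these 16 reached a mean of 1 FPKM in Ctrl but not in LIP, so their share is partly set by the floor. Of the 50 genes between 2 and 5 FPKM, 11 were lower and 4 higher (22% and 8%, beside 28.5% and 17.6%). Of the 21 genes between 5 and 10 FPKM, 7 were lower and 2 higher (33.3% and 9.52%, beside 28.4% and 25.3%). The 6 genes at 10 FPKM or more went the other way, with 1 lower and 4 higher, where 27.1% and 45.2% of all genes at that level were called. Under scaling on the mature neutrophil genes none of the higher calls was kept in any class, and 0.642% of all genes were called higher.

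The floor on the mean over both groups let some genes in through 1 group. In 21 Zfp genes (16.7%) only the Ctrl mean reached 1 FPKM, and 15 of these were called lower. No Zfp gene came in through LIP alone. Over all genes tested, 1112 (10.7%) came in through Ctrl alone and 260 through LIP alone. In the 105 Zfp genes at 1 FPKM or more in both groups, 20 were lower and 14 higher (19% and 13.3%, beside 27.2% and 26.5% of all genes tested). The median of these 105 was -0.05 on the log2 scale. Fitted again with a floor of 1 FPKM in each group, they gave 26 lower and 13 higher, with a median of -0.14. Over the 9068 genes of that fit, 28.1% were lower and 26.6% higher, with a median of -0.07.

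The groups stood apart, with no overlap between Ctrl and LIP libraries, in 66 Zfp genes (52.4%), 44 with LIP lower and 22 with LIP higher. Over all genes tested, 63.4% stood apart, 33.1% with LIP lower and 30.3% with LIP higher. Among the 77 genes that were not called, 44 had an interval of 2 SE on each side that stayed within 1 log2 unit of 0, while 4 had an estimate past 1 in size. For the remaining genes the libraries do not settle a change of that size. The calls also depended on single libraries. Of the 35 lower genes, 19 were called whichever library was left out, and of the 14 higher genes, 9 were. The count of lower genes fell to 20 without Ctrl library 3, where the lower share of all genes tested fell from 27.2% to 21.6%. The count of higher genes fell to 9 without LIP library 3, where the higher share of all genes fell from 26.5% to 24.0%. How many of all called genes kept their call in every such fit is not given.

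*Zfp318*, needed in B cells for the expression of IgD beside IgM, had the lowest log2 fold change. With group means of 5.39 FPKM in Ctrl and 0.791 FPKM in LIP it was among the 21 genes let in through Ctrl alone. The gene lies on chr17:46383731-46420920 on the plus strand (GRCm38). It stood at 82.2, 56.0 and 77.8 CPM (counts scaled to library total after TMM correction) in Ctrl libraries 1 to 3 and at 12.2, 13.1 and 14.0 CPM in LIP libraries 1 to 3. All 3 LIP libraries lay close together and far below the lowest Ctrl library. The log2 fold change was -2.46 ± 0.183 (SE, n = 3 a group; edgeR, adjusted p = 2.13e-06), and it stayed between -4.26 and -1.82 in the alternatives, leaving out the floors that it did not pass. The B cell markers, which fell in the same libraries, had a median log2 fold change of -2.53 and the T cell markers one of -2.50. Their part in the value of *Zfp318* was not tested. The other 2 genes of the lymphocyte list that were tested were not called: *Zfp831* had a log2 fold change of -0.21 (adjusted p = 0.623) and *Zfp608* of 0.27 (adjusted p = 0.149).

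*Zfp263*, a factor with a SCAN domain, a KRAB domain and a row of Cys2-His2 fingers, had the smallest adjusted p of the genes that rose. It lies on chr16:3744093-3750790 on the plus strand. Its levels were 75.1, 61.4 and 83.9 CPM in Ctrl and 160.4, 162.5 and 153.7 CPM in LIP. The LIP libraries differed from each other by less than the Ctrl libraries did, and the lowest of them was well above the highest Ctrl library. The log2 fold change was 1.11 ± 0.133 (edgeR, adjusted p = 5.85e-05), and only scaling on the mature neutrophil genes turned it, to -0.69.

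The stretch of 200 bases before the start of the gene is shown for 4 genes, because they carry the ends of the ranking and differ in base composition: *Zfp318* as the lowest, *Zfp971* and *Zfp263* as the 2 highest by the naming rule, and *Zfp622* as the most abundant gene that rose. The sequences are from RefSeq (GRCm38.p6, plus strand, 5′ to 3′), and capitals mark the GC box GGGCGG or its complement. The first is chr17:46383531-46383730, the second chr16:3743893-3744092, the third chr15:25984166-25984365 and the fourth chr2:178023084-178023283.
Zfp318: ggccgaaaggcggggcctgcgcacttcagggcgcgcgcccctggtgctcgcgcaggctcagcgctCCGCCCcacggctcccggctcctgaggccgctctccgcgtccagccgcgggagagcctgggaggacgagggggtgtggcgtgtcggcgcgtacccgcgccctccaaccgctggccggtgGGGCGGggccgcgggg
Zfp263: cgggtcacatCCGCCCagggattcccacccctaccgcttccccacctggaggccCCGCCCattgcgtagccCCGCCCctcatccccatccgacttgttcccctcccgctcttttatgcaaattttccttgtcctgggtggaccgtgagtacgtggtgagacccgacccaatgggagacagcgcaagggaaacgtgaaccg
Zfp622: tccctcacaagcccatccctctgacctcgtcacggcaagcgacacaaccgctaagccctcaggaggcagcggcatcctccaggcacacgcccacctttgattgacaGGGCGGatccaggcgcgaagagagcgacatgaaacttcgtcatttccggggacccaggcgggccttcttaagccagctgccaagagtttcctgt
Zfp971: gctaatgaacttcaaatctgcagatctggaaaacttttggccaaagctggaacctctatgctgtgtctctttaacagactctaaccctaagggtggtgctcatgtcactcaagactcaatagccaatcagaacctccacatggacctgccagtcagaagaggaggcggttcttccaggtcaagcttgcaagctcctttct
The *Zfp318* stretch holds 2 GC boxes and is 79.5% G and C, the *Zfp263* stretch holds 3 and is 62.5%, the *Zfp622* stretch holds 1 and is 60.5%, and the *Zfp971* stretch holds none and is 47.5%. Direction of change and GC boxes did not go together among these 4. A promoter of 300 bases, 250 before to 50 after the start, was found for 105 of the 126 genes. On either strand, GGGCGG was present in 61 of the 105 (58.1%), beside 35.9% of all promoters and 64.1% of those of tested genes. The Ets core CCGGAAG was present in 20 (19.0%, beside 9.12% and 20.4%), CCAAT in 47 (44.8%, beside 37.9% and 39.2%) and TATAAA in 4 (3.81%, beside 14.2% and 7.77%). None of these motifs contains another, and a match is a description of the window only. Median G and C content was 58.0% in the Zfp genes and 60.7% in tested genes, with 58.3% in lower and in uncalled Zfp genes and 54.3% in higher ones.

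Factors that bind promoters and enhancers included both higher and lower genes. Of 21 genes listed, 13 were tested, 5 were higher and 1 lower, where 26.5% and 27.2% of all genes were, and their median log2 fold change was 0.46. Under scaling on the mature neutrophil genes all 13 were called lower, as were 88.1% of all genes tested. *Zfp143*, which binds a great many promoters including those of small nuclear RNA genes, stood at 13.9, 12.5 and 11.7 CPM in Ctrl and at 24.0, 28.1 and 25.3 CPM in LIP. All LIP libraries were above all Ctrl libraries, with a log2 fold change of 1.02 ± 0.198 (edgeR, adjusted p = 0.00149). *Zfp143* overlaps the expressed gene *AA474408*, and reads in the overlap cannot be assigned.

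*Zfp281*, which binds GC-rich promoters and is best known from pluripotent cells, stood at 71.8, 44.8 and 87.7 CPM in Ctrl and at 136.5, 124.6 and 120.7 CPM in LIP. The Ctrl libraries were spread widely, and even the highest lay below the LIP libraries. The log2 fold change was 0.90 ± 0.207 (adjusted p = 0.00419 by edgeR). *Zfp217*, a partner of the CtBP and CoREST repressor complexes, was at 6.05, 9.97 and 5.83 CPM in Ctrl and 14.3, 12.1 and 17 CPM in LIP, with a log2 fold change of 0.99 (adjusted p = 0.0177), and it kept its call in 3 of the 6 fits that left out a library. *Zfp652* rose too, by 0.78 (adjusted p = 0.00427), and overlaps the expressed gene *Abi3*.

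The gene of this list that fell was *Zfp410*, known as a dedicated activator of the chromatin remodeller gene *Chd4*. It stood at 19.3, 13.1 and 18.6 CPM in Ctrl and 9.11, 7.02 and 3.96 CPM in LIP, so that the groups did not overlap. The log2 fold change was -1.34 ± 0.335 (adjusted p = 0.00669). *Chd4* itself had a log2 fold change of 0.05 ± 0.133 (adjusted p = 0.753), with overlapping groups at 57.6 to 61.7 CPM in Ctrl and 57.7 to 71.3 CPM in LIP. *Zfp410* lay just inside the FPKM floor and was among the genes let in through Ctrl. The other 7 tested genes of the list were not called, among them *Zfp384* (0.46, adjusted p = 0.0593), *Zfp703* (0.65, 0.0958), *Zfp335*, a subunit of an H3K4 methyltransferase complex (0.36, 0.195), *Zfp687* (0.27, 0.339), *Zfp292* (0.11, 0.405), *Zfp148* (-0.10, 0.631) and *Zfp592* (-0.24, 0.326).

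Genes listed for RNA, ribosomes or translation divided into both directions, and the list held the 2 most abundant Zfp transcripts. Of 10 genes listed, 9 were tested, 4 were lower and 3 higher, where 27.2% and 26.5% of all genes were. Their median log2 fold change was -0.39. *Zfp706*, which the deposited table also places in the Reactome pathway of generic transcription, was the most abundant of all 126 at a mean of 31.7 FPKM. It stood at 198.4, 210.8 and 195.1 CPM in Ctrl and 139.7, 117.9 and 131.9 CPM in LIP. The 2 groups were tight and far apart for so small a change, with a log2 fold change of -0.63 ± 0.109 (edgeR, adjusted p = 0.000713). *Zfp622*, a factor of the late maturation of the 60S ribosomal subunit and second in abundance at 27.4 FPKM, moved the other way. It stood at 154.4, 167.6 and 165.5 CPM in Ctrl and 246.7, 303.3 and 252.5 CPM in LIP. No LIP library came near the Ctrl range, and the log2 fold change was 0.72 ± 0.113 (adjusted p = 0.000388). The gene lies on chr15:25984366-25998481 on the plus strand.

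*Zfp106*, which encodes an RNA-binding protein, stood at 120.0, 86.9 and 89.8 CPM in Ctrl and at 200.5, 201.0 and 196.7 CPM in LIP. The LIP libraries were nearly equal, and the log2 fold change was 1.01 ± 0.137 (edgeR, adjusted p = 0.000139). *Zfp638*, whose product brings the HUSH silencing complex to unintegrated retroviral DNA, stood at 59.3, 51.5 and 51.1 CPM in Ctrl and 69.7, 70.7 and 79.7 CPM in LIP. The change was smaller, at 0.44 ± 0.129 on the log2 scale (adjusted p = 0.0149), with the groups apart and the call kept in 4 of the 6 fits that left out a library. *Zfp638* overlaps the expressed gene *Gm5138*.

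The remaining lower genes of this list were close to the threshold. *Zfp593* had a log2 fold change of -0.80 (adjusted p = 0.0463), *Zfp326*, a subunit of the DBIRD complex that couples splicing to elongation, of -0.78 (0.0265), and *Zfp207*, a kinetochore factor that binds Bub3, of -0.39 (0.0359). *Zfp593* and *Zfp207* were each called in 1 of the 6 fits that left out a library and *Zfp326* in 2. *Zfp598*, a ubiquitin ligase of collided ribosomes, stood at -0.17 (adjusted p = 0.658) and *Zfp830* at -0.45 (adjusted p = 0.137). The other ligase tested was *Zfp91*, which acts in noncanonical NF-κB signaling. Its levels were 40.5, 34.7 and 39.0 CPM in Ctrl and 30.9, 29.0 and 25.3 CPM in LIP. The groups did not overlap, but with a log2 fold change of -0.42 ± 0.164 the adjusted p was 0.0504 by edgeR.

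The plot of CPM by library shows the genes at both ends of the ranking among those with a mean of at least 2 FPKM. After *Zfp318*, *Zfp395* fell by 1.75 on the log2 scale, from 27.2, 24.6 and 25.3 CPM in Ctrl to 5.91, 9.14 and 7.84 CPM in LIP (adjusted p = 0.000133). *Zfp637* fell by 1.61, from 9.95, 9.65 and 8.5 CPM to 3.02, 2.96 and 3.20 CPM (adjusted p = 0.0012), and with a mean of 0.981 FPKM in LIP it was let in through Ctrl alone. For both genes the replicates lay close together. In *Zfp358* they did not: LIP library 1 stood at 0.836 CPM while the other LIP libraries stood at 5.57 and 4.02 CPM, and the call (-1.53, adjusted p = 0.0399) was kept in 2 of the 6 fits that left out a library. *Zfp362* (-1.36), *Zfp639* (-1.18), *Zfp422* (-1.16) and *Zfp1* (-1.10) were called in all 6 such fits, *Zfp180* (-0.93) in 4 and *Zfp296* (-1.04), which overlaps the expressed gene *Gemin7*, in 2.

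**Figure D3:**
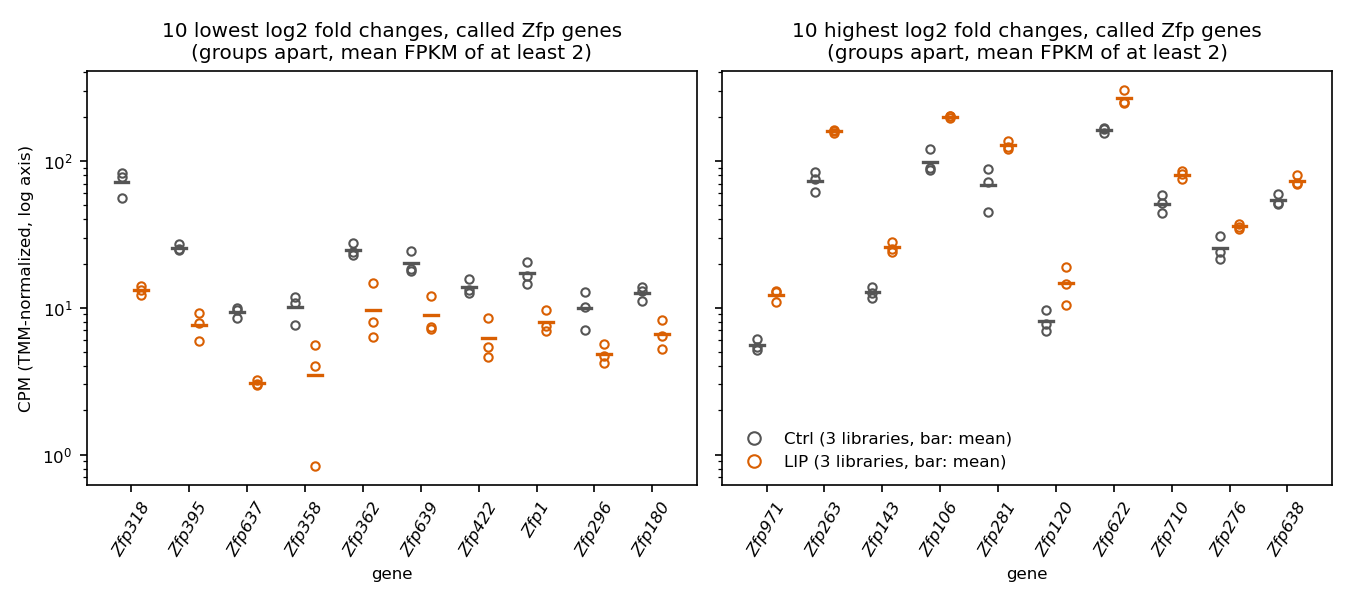
Level of each gene in CPM (y axis, TMM-normalized, log scale) in the 3 Ctrl libraries (grey) and the 3 LIP libraries (orange), with bars at the group means. The left panel holds the 10 lowest and the right panel the 10 highest log2 fold changes among called Zfp genes with groups apart and a mean of at least 2 FPKM. *Zfp358* has 1 LIP library at 0.836 CPM, well under the others. The genes on the right are no longer higher under scaling on the mature neutrophil genes, where 0.642% of all genes tested were called higher.

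At the upper end, *Zfp971* rose most by the naming rule, from 6.10, 5.19 and 5.41 CPM in Ctrl to 11.0, 13 and 12.8 CPM in LIP (log2 fold change 1.14 ± 0.267, edgeR adjusted p = 0.00463). The lowest LIP library lay well above the highest Ctrl library. *Zfp710* rose by 0.65 on the log2 scale (adjusted p = 0.00269) and was called in all 6 fits that left out a library. *Zfp120* (0.85) was called in 2 of those fits and *Zfp276* (0.49), which overlaps the expressed gene *Vps9d1*, in 1. Among genes under 2 FPKM, named here after their values were seen, *Zfp719* had the highest log2 fold change of all (1.32, adjusted p = 0.00938), and *Zfp553* had the lowest after *Zfp318* (-2.18, adjusted p = 0.0404) with an SE of 0.80. *Zfp553* was let in through Ctrl alone (3.13 FPKM, against 0.56 in LIP) and kept its call in 3 of the 6 fits that left out a library.

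Of the 10 most abundant genes, 2 fell (*Zfp706* and *Zfp207*) and 4 rose (*Zfp622*, *Zfp263*, *Zfp281* and *Zfp106*). Among all genes at 10 FPKM or more, 27.1% were lower and 45.2% higher, and between 5 and 10 FPKM 28.4% and 25.3%. The other 4 of the 10 were not called: *Zfp830*, *Zfp53* (-0.19), *Zfp110* (-0.01), which encodes an interactor of the p75 neurotrophin receptor, and *Zfp292*. *Zfp292* stood at 95.5, 86.9 and 98.2 CPM in Ctrl and 102.4, 98.6 and 102.8 CPM in LIP. Its groups did not overlap, but the difference was about as large as its SE (0.11 ± 0.112).

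Genes known to silence retroelements or guard imprints were few at this level. Of 7 listed, 3 were tested and edgeR called none at the adjusted threshold, with 1 at an unadjusted p under 0.05. DESeq2 and limma on log2(FPKM + 1) each called 1, *Zfp809* (adjusted p = 0.0456 and 0.00626). *Zfp809*, which silences retroviruses through their primer binding site, stood at 19.5, 14.0 and 15.6 CPM in Ctrl and 11.1, 12.1 and 7.84 CPM in LIP. Each LIP library lay below each Ctrl library, with a log2 fold change of -0.66 ± 0.262 and an adjusted p of 0.0553 by edgeR. *Zfp445*, a guardian of imprints, had a log2 fold change of -0.47 (adjusted p = 0.176) and *Zfp932*, which acts on endogenous retroviruses, of -0.23 (adjusted p = 0.667), both with overlapping groups.

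The partners of KRAB zinc finger proteins were read next. Of 19 genes listed, 14 were tested, 7 were lower and 2 higher, where 27.2% and 26.5% of all genes were, and the median log2 fold change was -0.60, beside -0.09 over all genes. Their summed level was 156.2 to 158.7 FPKM in Ctrl and 93.4 to 95.4 FPKM in LIP. *Trim28*, the corepressor itself, stood at 65.1, 43.8 and 68.2 CPM in Ctrl and 31.6, 31.9 and 24.9 CPM in LIP. All LIP libraries lay under the lowest Ctrl library, with a log2 fold change of -1.0 ± 0.195 (edgeR, adjusted p = 0.00154). The other lower genes were the NuRD helicase gene *Chd3* (-1.80), the deacetylase genes *Hdac2* (-1.39) and *Hdac1* (-0.51), the HP1 genes *Cbx1* (-1.15) and *Cbx3* (-0.69), and *Sumo2* (-0.97).

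*Setdb1*, which encodes the H3K9 methyltransferase of the pathway, stood at 8.92, 8.40 and 12.1 CPM in Ctrl and 9.39, 9.94 and 9.40 CPM in LIP. The groups overlapped (log2 fold change -0.03 ± 0.269, adjusted p = 0.926). *Atf7ip*, its nuclear partner, was higher (0.73, adjusted p = 0.00346), as was *Morc3* (0.58, adjusted p = 0.0191). Of the HUSH complex and its partners 4 genes were tested, where 27.2% of all genes were lower and 26.5% higher. *Tasor* (-1.49, adjusted p = 0.00296) and *Mphosph8* (-0.93, 0.0241) were lower, *Resf1*, a partner of SETDB1, was higher (1.19, 3.16e-06), and *Pphln1* stood at -0.17 (0.587). *Tasor* lay close to the floor, at a mean of 1.24 FPKM. With a floor of 1 FPKM in each group, 1 gene of this list was lower instead of 2. Under scaling on the mature neutrophil genes all 14 genes of the first list and all 4 of the second were called lower. Over all genes tested, 88.1% were called lower under that scaling.

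Other zinc finger families were counted in the same way, beside 27.2% lower and 26.5% higher over all genes. Of 22 Zbtb genes, which carry a BTB domain, 4 were lower and 3 higher (31.8% called, median -0.25). Of 7 Zscan and Zkscan genes, which carry a SCAN domain, 2 were lower and 1 higher (42.9% called, median -0.32). The difference between these families and the Zfp genes was not tested. Within the Zfp genes, the 38 that the deposited table places in the Reactome pathway of generic transcription had 9 lower and 5 higher (36.8% called), against 26 and 9 of the other 88. The 44 that it places in the KEGG pathway of herpes simplex virus 1 infection, which lists a large number of KRAB zinc finger genes, had 10 lower and 2 higher (27.3% called), against 25 and 12 of the other 82.

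Zfp genes lie in clusters in the mouse genome, and 33 of the 126 fell into 6 runs of at least 3 genes with gaps of at most 500 kb. Calls in all these runs stand beside 27.2% lower and 26.5% higher over all genes tested. The longest, on chr7:127233061-127885992, held 9 genes whose median was -1.47, and 4 of them were lower (*Zfp553*, *Zfp747*, *Zfp689* and *Zfp668*) and none higher. All 4 were let in through Ctrl alone, as was *Zfp764*, the gene at the median. Of the other 4 genes of the run, which reached 1 FPKM in both groups, none was called, so that its calls and its median are partly set by the floor. *Zfp768*, one of these, was at 0.88 (adjusted p = 0.0822). The run on chr17:21383748-22377281 held 8 genes, all at 1 FPKM or more in both groups, with log2 fold changes between -0.19 and 0.40. Of these, edgeR called none and had none at an unadjusted p under 0.05, DESeq2 called none and limma on log2(FPKM + 1) called 1. These genes were named after their values were seen, and the difference between the runs was not tested. Of the other runs, those on chr7:29768552-30169727 and chr6:47920476-48445464 held 5 genes each with 2 lower, of which both in the former and 1 in the latter were let in through Ctrl alone, and the 2 runs of 3 genes held 1 lower gene in all.

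**Figure D4:**
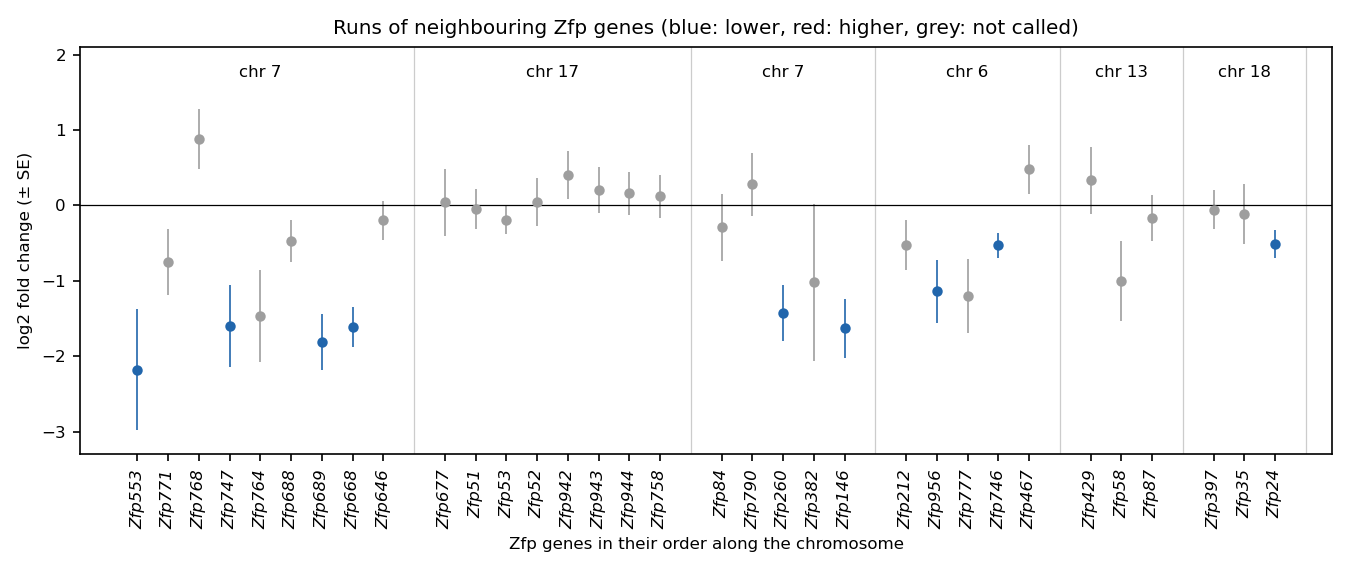
Log2 fold change, LIP against Ctrl (y axis, ± SE, 3 libraries a group), of the 33 Zfp genes in 6 runs of neighbours, in their order along each chromosome (x axis, not to genomic scale). Blue points are lower in LIP and grey points were not called, and no gene in a run was called higher. Over all genes tested, 27.2% were lower and 26.5% higher. The first run on chromosome 7 has a median of -1.47, set in part by 5 genes that reached 1 FPKM only in Ctrl, and all 8 genes of the run on chromosome 17 lie between -0.19 and 0.40 under trimmed-mean scaling.

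Of 3 head-to-head pairs, 1 held a called gene. *Zfp646* and *Zfp668* lie head to head on chromosome 7, with starts that overlap by 607 bases. *Zfp668* stood at 16.1, 16.7 and 16.5 CPM in Ctrl and at 6.41, 5.35 and 4.38 CPM in LIP (log2 fold change -1.61, edgeR adjusted p = 0.000487). *Zfp646* stood at 12.6, 19.9 and 15.6 CPM in Ctrl and at 10.9, 15.9 and 14.8 CPM in LIP (-0.20, adjusted p = 0.524). One gene was lower in every LIP library and the other overlapped between groups. *Zfp668* was let in through Ctrl alone (2.49 FPKM, against 0.658 in LIP), and reads within the overlap are uncertain for both. The 2 other head-to-head pairs, both on chromosome 17, had values close to each other, *Zfp758* (0.12) with *Zfp944* (0.16) at 53 bases and *Zfp943* (0.20) with *Zfp942* (0.40) at 101 bases.

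In all, 21 Zfp genes overlap another expressed gene. The 77 that overlap no listed gene had 18 lower and 9 higher (median -0.17 on the log2 scale). These are 23.4% and 11.7%, beside 27.2% and 26.5% of all genes tested. Genes let in through Ctrl alone, such as *Zfp637*, are among the 18. Chromosome 7 held the most Zfp genes, 29, of which 12 were lower and 4 higher, where 27.2% and 26.5% of all genes were. Of the 12, 7 were let in through Ctrl alone.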

How the data were processed

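RNA of CD45+CD11b+Ly6G+ cells was amplified by Smart-seq2, which has no molecular identifiers, and read as 150-base pairs. For each gene on GRCm38, the authors deposited the raw count of reads, not normalized, and an FPKM value made from it by gene length and library total. The submitters' processing notes name cutadapt 1.9 and FastQC. The aligner, the counter and the use of strand are not given in the sources used here. The columns used were the counts and FPKM of the 6 libraries. Where a name stands on several rows (50 names), the row of higher mean FPKM was used.

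Total counts were 52186555 to 57262379 per library, which makes counting error minor next to the differences between replicates. The smallest count of a Zfp gene in any library was 0 (*Zfp382* in LIP library 1). No pair of libraries within a group agreed within sampling noise (chi-square per gene 51.9 to 126). The main test was edgeR's quasi-likelihood test in version 4.0.16 (under R 4.3.3), with TMM factors and no replicate block, on the 10440 genes that averaged 1 FPKM or more. The script was tested on simulated data first. SE is the size of the log2 fold change over the root of its F statistic. Alternatives changed the scaling, the tool (DESeq2 1.42.0, limma 3.58.1), the filter and the libraries. Same-numbered libraries come from different mice.

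Named genes are the 10 lowest and 10 highest log2 fold changes among called Zfp genes with groups apart and a mean of at least 2 FPKM, the 10 most abundant, the tested genes of the role lists, those next to the floor and the called genes of the KRAB list. The Zfp genes and all lists were chosen with earlier results of these data known. Promoters were matched on the Entrez gene identifier, or on gene symbol where the identifier gave no match. Classes by protein domain were not used here, and the deposited pathway annotation took their place after the data were seen. The columns of gene annotation were read for coordinates and pathways. The 2 groups had 3 libraries each, for which an exact permutation test cannot go below 0.1, so no such test is given.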

Additional observations from a re-analysis of the deposited data

How the results depend on the processing

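Of 829 values of 44 named Zfp genes under the alternatives, 678 kept their direction and their side of the threshold, 72 kept the direction but lost the call, 39 gained one and 40 changed direction. In 18 of the 40 the value was called in one of the fits, in each case under scaling on the mature neutrophil genes: *Zfp106* -0.79, *Zfp120* -0.96, *Zfp143* -0.78, *Zfp217* -0.80, *Zfp263* -0.69, *Zfp276* -1.32, *Zfp281* -0.90, *Zfp292* -1.69, *Zfp335* -1.44, *Zfp384* -1.35, *Zfp608* -1.54, *Zfp622* -1.08, *Zfp638* -1.36, *Zfp652* -1.02, *Zfp687* -1.52, *Zfp703* -1.16, *Zfp710* -1.14 and *Zfp971* -0.66. The others were near 0 and called in neither fit: *Zfp292*, *Zfp608* and *Zfp687* with library totals (-0.21, -0.05 and -0.05), limma on log2(FPKM + 0.1) (-0.19, -0.04 and -0.07) and limma on log2(FPKM + 1) (-0.17, -0.03 and -0.06), *Zfp292* at a floor of 5 FPKM (-0.05), *Zfp110* with DESeq2, filterByExpr and median-of-ratios factors (0.03 each) and without a filter and with the replicate block (0.02 each), and, over the fits that left out a library, *Zfp110* (-0.20 to 0.17), *Zfp148* (-0.24 to 0.01), *Zfp598* (-0.37 to 0.04), *Zfp831* (-0.43 to 0.27) and *Zfp932* (-0.46 to 0.09). The neutrophil scaling, which sets those markers to no change on average, called 123 of the 126 lower and 0 higher (median -2.0), with 14 and 0 of the KRAB list, 9 and 0 of the RNA list and 13 and 0 of the promoter list. Over all genes tested it called 88.1% lower and 0.642% higher. Library totals gave 8 higher and a median of -0.52, 0 higher in the KRAB list and 3 lower in the promoter list. Limma on log2(FPKM + 1) and on log2(FPKM + 0.1) gave 6 higher each, medians of -0.36 and -0.49, 0 higher in the KRAB list and 3 higher in the promoter list. Among calls, the share of higher ones was 28.6% in the reported fit, 13.8% with library totals, 10.9% and 11.3% with limma and 0% with neutrophil scaling. The higher calls over all genes tested moved too, at 26.5%, 18.4%, 19.3%, 18.9% and 0.642% in the same order. The lower calls over all genes were 27.2%, 39.7%, 40.7%, 39.7% and 88.1%. A floor of 5 FPKM, which left 27 Zfp genes, gave 9 lower and 5 higher (median -0.05), with 3 and 1 in the KRAB list and 0 and 2 in the promoter list. Over all genes at that floor, 35.1% were lower and 33.2% higher. A floor of 1 FPKM in each group left 105 Zfp genes, 26 lower and 13 higher, and 0 lower in the promoter list. Over all genes in that fit, 28.1% were lower and 26.6% higher. Without a filter 20 were lower, beside 7.51% of all genes, and the median of the Zfp genes (-0.16) lay above that of all genes (-0.25). That fit gave 1 higher in the KRAB list and 1 lower in the RNA list. The RNA list had 2 lower with filterByExpr and with median-of-ratios factors. Genes that overlap no listed gene gave 18 lower and 9 higher, beside 27.2% and 26.5% of all genes tested. They had 1 lower in the RNA list and 0 lower and 3 higher in the promoter list. For these changes, beyond the fewer genes that a filter leaves or the more it tests, the cause was not tested. Leaving out 1 library gave 20 to 34 lower, 9 to 17 higher, medians of -0.26 to -0.12, 1 to 2 higher and 6 to 8 lower in the KRAB list, 1 to 4 lower and 2 to 3 higher in the RNA list, and 4 to 6 higher in the promoter list. With the replicate number as a block, 35 were lower and 15 higher, 33 and 13 of them shared with the reported calls. Of all genes, 27.0% were lower and 26.1% higher in that fit. The deviations of same-numbered libraries correlated at 0.0212, 0.0562 and 0.0364, and 2 of the 3 correlated best with their own number. Other pairs correlated at -0.0504 to 0.0217. All of these are small, and whether the numbers mark a shared step of handling was not tested. The retroelement list, with 0 calls as reported, had 1 lower with upper quartile factors, DESeq2, limma at either pseudocount, 1 FPKM in each group or LIP library 1 left out, 2 with library totals and 3 with neutrophil scaling, and the ligase list 1 with TMM without haemoglobin genes, upper quartile factors, library totals, limma or 1 FPKM in each group, and 2 with neutrophil scaling. The alternatives for classes by protein domain were not run.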
